A study of Drosophila melanogaster with 6 samples.

Results

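The genes described are the 10 named members of the Drosophila melanogaster prolyl 4-hydroxylase group. They comprise the salivary gland subunits PH4alphaSG1 and PH4alphaSG2, 6 further alpha subunits, the partner Pdi and the lysyl hydroxylase Plod. All probe sets annotated to these genes were taken, which gave 1 probe set for each of the 10 genes, out of 11983 genes named by a probe set. RNA came from whole embryos of stages 11 to 16, of the Oregon R wild type strain or mutant for sage, which encodes a bHLH transcription factor that the salivary gland expresses. There were 3 samples of each, age matched, kept at 25 degrees, each on its own Affymetrix 3′ expression array. The sources used here name neither the sage allele nor the background of the mutant stock, and strain and genotype cannot be told apart.

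Prolyl 4-hydroxylases sit in the endoplasmic reticulum and add hydroxyl groups to proline residues, using iron, oxygen, 2-oxoglutarate and ascorbate. In collagens this modification stabilises the triple helix. The animal enzyme joins catalytic alpha subunits to protein disulphide isomerase, which keeps them soluble and in the endoplasmic reticulum. Flies have many alpha subunit genes, most of them in a cluster on chromosome arm 3R, and several are named for the embryonic tissue that expresses them. SG stands for salivary gland, EFB for epidermis and fat body, MP for mouthparts and PV for proventriculus. PH4alphaSG1 and PH4alphaSG2 are known to act downstream of sage and fkh in keeping the gland lumen open and even.

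Values are log2 signals per probe set, on which 1 unit is a doubling. The 6 arrays had median signals of 5.89 to 6.01, and the precision is limited by having only 3 per group. Wild type replicate 2 correlated least with its own group, at a mean of 0.977 across probe sets, against 0.985 to 0.993 for the other 5 arrays. Averaged over 5 control transcript pairs, signal at the 5′ end minus signal at the 3′ end came to −1.84 ± 0.08 on the wild type arrays. On the mutant arrays this control difference was −3.68 ± 0.61 (SD, n = 3 each). The targeted gene, sage, changed by −2.97 on the log2 scale (SE 0.19, limma adjusted p = 0.00125). Of 6 measured salivary gland markers, each by its brightest probe set, sage and Papss fell and none rose, with Papss not passing without mutant replicate 2 (limma adjusted p = 0.0536) or 3 (0.0592). For pip, a sulfotransferase gene with 10 probe sets, the brightest did not pass (log2 change −0.73, limma adjusted p = 0.164), but 6 of the others fell, with log2 changes of −3.18 to −1.53. Counted by probe set, 8 of the 15 for these markers were lower (1.93% of all probe sets) and none higher (2.1%). Of these 8, however, 6 belong to pip and 1 to sage itself. The single probe sets of fkh, eyg and sens did not pass. The markers' mean signal was 8.49 to 8.71 on the wild type arrays and 7.31 to 7.81 on the mutant arrays. This mean includes the targeted gene, sage, whose fall was the largest of the 6 markers. In whole embryos, fewer gland cells and less RNA per gland cell cannot be told apart, and the part of the control and marker shifts in the results was not tested.

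Among the 10 genes, both salivary gland subunits fell in the mutants and the other 8 passed in neither direction. 2 of 10 were thus lower at a limma adjusted p under 0.05, against 1.93% of all 18769 probe sets tested and 4.03% in either direction. None of the 10 was higher, either by limma after adjustment or at an unadjusted p under 0.05, against 2.1% of all probe sets after adjustment. At an unadjusted p under 0.05 the shares over all probe sets were 18.7% in either direction, 9.44% lower and 9.25% higher, and the unadjusted counts given for lists are to be read beside these. The median log2 change of the 10 was −0.11, beside −0.03 over all probe sets.

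**Figure D1:**
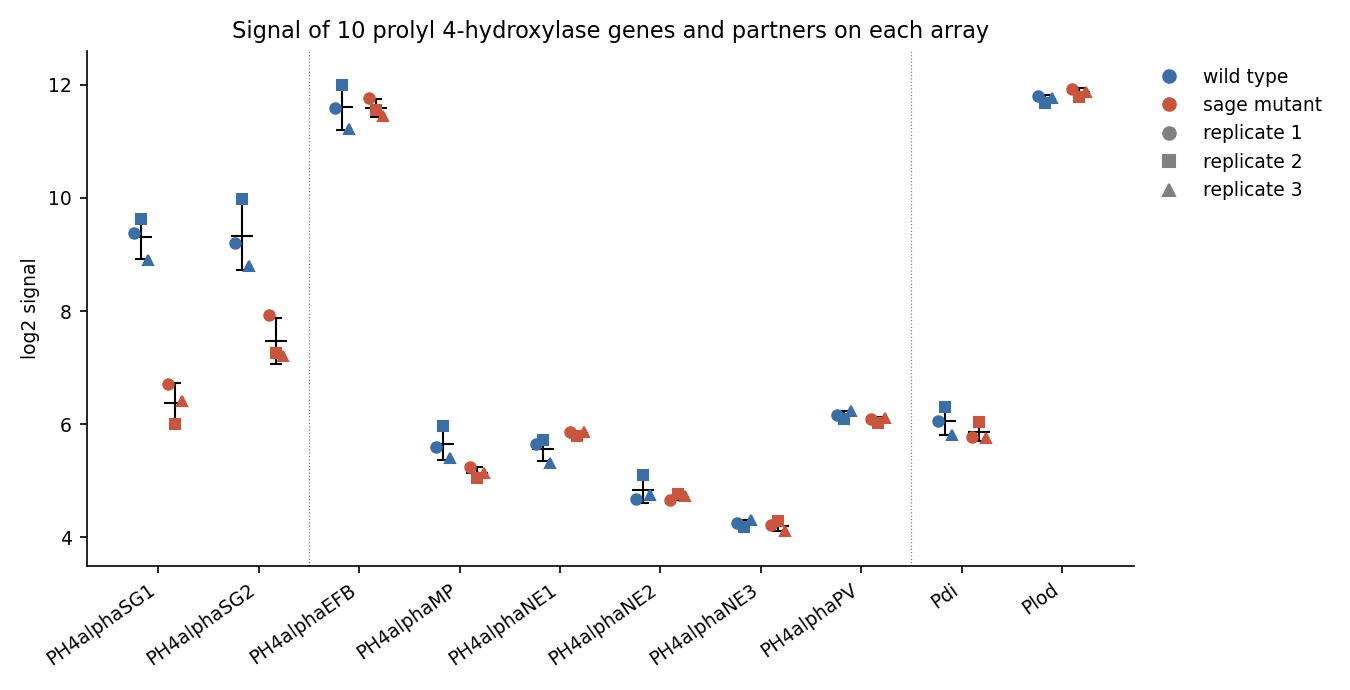
Log2 signal of each gene on each of the 6 arrays, with group means and SD (n = 3) as black bars and replicates as symbols. The PH4alphaSG1 and PH4alphaSG2 points of the mutants all lie below those of the wild type, while the PH4alphaEFB and Plod points of both groups lie together between 11.21 and 12.00.

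PH4alphaSG1, one of the gland's catalytic subunits, gave wild type signals of 9.38, 9.64 and 8.90 for replicates 1 to 3. The mutant signals were 6.72, 6.01 and 6.40. The groups were separated by 2.18, the gap between the lowest wild type and the highest mutant array, and no mutant array came near the wild type range. The means were 9.30 ± 0.38 and 6.38 ± 0.35 (SD, n = 3 each). This was a 7.59-fold fall, or −2.92 as a log2 change (SE 0.25, 95% interval −3.52 to −2.33), at a limma adjusted p of 0.0036. It passed without each array in turn, with log2 changes from −3.13 to −2.74. When the control difference entered the fit as a covariate, the estimate was −3.49 (SE 0.70, limma adjusted p = 0.3). In that fit no probe set passed limma, and 1613 had an unadjusted p under 0.05, against 3508 without the covariate. The control difference was more negative on every mutant array (−4.349 to −3.172) than on any wild type array (−1.895 to −1.756). The fit therefore cannot tell it apart from genotype, here or for the covariate estimates given below.

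PH4alphaSG2, the second gland subunit, gave wild type signals of 9.21, 9.99 and 8.80 for replicates 1 to 3. The mutant signals were 7.93, 7.25 and 7.21. The groups did not overlap, but the gap was 0.86, and both groups were more spread than for PH4alphaSG1. The means were 9.33 ± 0.61 and 7.47 ± 0.41 (SD, n = 3 each). This was a 3.64-fold fall, or −1.86 as a log2 change (SE 0.34, 95% interval −2.67 to −1.05), at a limma adjusted p of 0.0371. This call was lost with the replicate number as a block (limma adjusted p = 0.0539). Leaving out wild type replicate 1 (0.111) or either of mutant replicates 2 (0.16) and 3 (0.168) also ended it, with log2 changes of −1.93, −1.76 and −1.74. With the covariate the estimate was −2.82 (SE 0.93, limma adjusted p = 0.48).

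Within an array, PH4alphaSG1 minus PH4alphaSG2 was 0.17, −0.35 and 0.10 for the wild type arrays. For the mutant arrays it was −1.22, −1.24 and −0.81, so PH4alphaSG1 had the larger log2 drop, by 1.06. The groups did not overlap in this difference. The two-sided exact permutation p was 0.1, which is the smallest that 3 arrays against 3 can give.

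**Figure D2:**
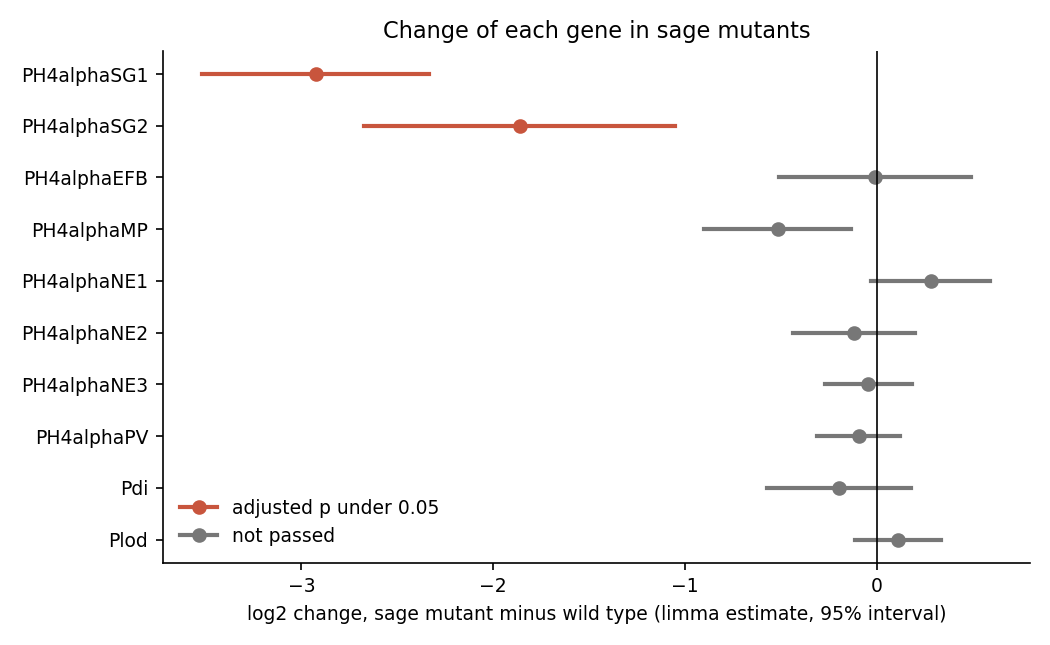
Log2 change of each gene, mutant minus wild type, as the limma estimate with its 95% interval. The intervals of PH4alphaSG1 (−3.52 to −2.33) and PH4alphaSG2 (−2.67 to −1.05) lie far below 0, that of PH4alphaMP (−0.90 to −0.14) lies just below it, and the other 7 span 0.

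PH4alphaEFB is the subunit that serves collagen in the fat body. Its signals over replicates 1 to 3 were 11.59, 12.00 and 11.21 for wild type and 11.77, 11.55 and 11.45 for the mutants. The mutant values all lay inside the wild type range. Its log2 change was −0.01 (SE 0.21, limma adjusted p = 0.988), with a 95% interval of −0.51 to 0.49 that leaves room for a moderate change either way. Without wild type replicate 2, its highest array, the estimate was 0.19. Fat body markers had no member past the test among 3 measured, and none at an unadjusted p under 0.05. Of 6 epidermis markers none passed limma. Ddc and ple, which make the dopamine used in cuticle, were higher at an unadjusted p under 0.05 (9.25% of all probe sets). The other 4 had negative estimates, from −0.29 for ovo to −0.10 for f, none of them at that threshold. A dimmer probe set of grh was lower at it (log2 change −0.41, limma unadjusted p = 0.0076, 9.44% of all probe sets).

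PH4alphaMP, the mouthpart subunit, was the next lowest of the group after the gland subunits. Its wild type signals were 5.60, 5.97 and 5.40, and its mutant signals were 5.25, 5.05 and 5.13 in replicates 1 to 3. The groups did not overlap, yet all 6 values were dim, with 5 below the median of their array and wild type replicate 2 just above its own. It differed by −0.52 on the log2 scale (SE 0.16, 95% interval −0.90 to −0.14, limma adjusted p = 0.147). It passed only with array weights (log2 change −0.44, limma adjusted p = 0.0335) among 14 alternatives. PH4alphaMP overlaps its neighbour PH4alphaSG2 in the RefSeq annotation, and the positions of the probes are not given in the sources used here. Of 4 measured mouthpart and head markers none passed limma, and Ama was lower at an unadjusted p under 0.05 (9.44% of all probe sets). Their mean signal was 8.43 to 8.86 in wild type and 7.95 to 8.38 in the mutants, and the part of this shift in the PH4alphaMP values was not tested.

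PH4alphaPV, the proventriculus subunit, had signals of 6.17, 6.10 and 6.24 in wild type and 6.10, 6.01 and 6.10 in the mutants. Its values lay within 0.23 of each other on all 6 arrays. The estimate was −0.10 (SE 0.09, 95% interval −0.31 to 0.12, limma adjusted p = 0.662). None of 4 proventriculus and foregut markers passed limma, and none had an unadjusted p under 0.05.

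The 3 NE subunits had low signals. PH4alphaNE1 was at 5.66, 5.72 and 5.31 in wild type and 5.87, 5.80 and 5.86 in the mutants. Its estimate was 0.28 on the log2 scale (SE 0.13), at a limma adjusted p of 0.322. It was the only one of the 6 non-gland subunits with a positive estimate, and its groups did not overlap. PH4alphaNE2 ranged from 4.66 to 5.10 over the 6 arrays, with a log2 change of −0.12 (limma adjusted p = 0.724). PH4alphaNE3 ranged from 4.11 to 4.31, with a log2 change of −0.05 (limma adjusted p = 0.869). PH4alphaNE3 had a mean signal at or below which only 7.44% of probe sets lay, and PH4alphaNE2 one with 24.8%. Detection above background was not assessed, so values this dim may be bounds rather than levels.

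Groups that did not overlap were found for 4 of the 10 genes, 3 lower and 1 higher. Over all probe sets 24.4% had groups that did not overlap, 14.1% lower and 10.3% higher. The separation of PH4alphaMP and PH4alphaNE1 is therefore of a kind that many probe sets of these arrays show.

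Pdi encodes protein disulphide isomerase, the partner of the alpha subunits. Its signals over replicates 1 to 3 were 6.05, 6.31 and 5.81 for wild type and 5.77, 6.04 and 5.76 for the mutants. The groups overlapped, and the probe set sat close to the array median, with 49.9% of probe sets at or below it. How well this 1 probe set reads the Pdi transcripts was not tested, which limits what its lack of change can show. The estimate was −0.20 (SE 0.16, 95% interval −0.57 to 0.18, limma adjusted p = 0.589).

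Plod encodes the lysyl hydroxylase that modifies collagen alongside the prolyl enzymes. Its signals were 11.80, 11.68 and 11.77 in wild type and 11.93, 11.78 and 11.88 in the mutants. It was a bright and steady probe set, with SDs of 0.06 and 0.08 (n = 3 each). The estimate was 0.11 (SE 0.09, 95% interval −0.11 to 0.33, limma adjusted p = 0.621), so the interval holds no fall as large as that of either gland subunit.

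To set the gland subunits against the others directly, the log2 signal of each other gene was subtracted from that of PH4alphaSG1 or PH4alphaSG2 within every array. The offset of such a difference depends on the probes and has no meaning, so only its change between groups is read. That change can also depend on the probes. The 10 probe sets of pip, for example, had log2 changes from −3.18 to 0.15. The part of this in the pair changes was not tested. For PH4alphaSG1 minus PH4alphaEFB the differences were −2.21, −2.37 and −2.32 in wild type and −5.05, −5.54 and −5.05 in the mutants. The wild type SD of this difference was 0.08, against 0.38 for PH4alphaSG1 alone. The change in this difference was −2.91. Against the other 7 non-gland genes the wild type SD ran from 0.14, for PH4alphaMP and Pdi, to 0.45, for PH4alphaPV, and it was above that of PH4alphaSG1 alone for PH4alphaPV, PH4alphaNE3 (0.44) and Plod (0.42).

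Relative to the 8 non-gland genes, the change of PH4alphaSG1 ran from −3.20, against PH4alphaNE1, to −2.41, against PH4alphaMP. Against Pdi the change was −2.73 and against Plod −3.03. PH4alphaSG2 minus Pdi was 3.15, 3.68 and 2.99 in wild type and 2.16, 1.21 and 1.45 in the mutants, a change of −1.66. Its change against Plod was −1.97, against PH4alphaEFB −1.85 and against PH4alphaMP −1.35, the smallest of the 16. In all 16 pairs of a gland subunit and another gene the 3 mutant differences lay below the 3 wild type differences. The gap of PH4alphaSG1 (2.18) exceeded the range over 6 arrays of every non-gland gene, the widest being 0.92 for PH4alphaMP. The gap of PH4alphaSG2 (0.86) exceeded all of these ranges but that of PH4alphaMP. Apart from PH4alphaSG2 minus PH4alphaMP, the lack of overlap thus followed from the falls of the gland subunits and is no separate result. Each pair had a two-sided exact permutation p of 0.1, also 0.1 after Benjamini-Hochberg adjustment over the 17 pairs compared, and no smaller p is possible with 3 arrays against 3. All 16 were also without overlap after quantile normalization.

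**Figure D3:**
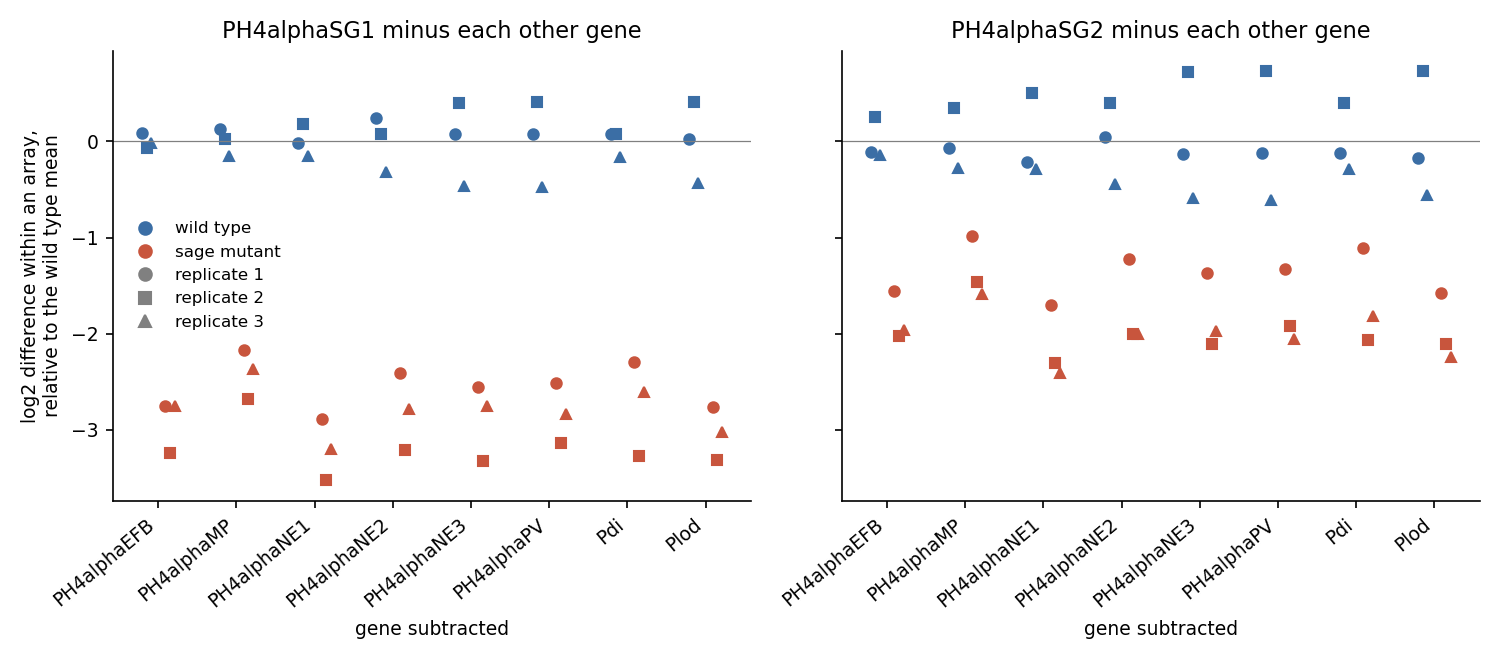
Within-array log2 difference between PH4alphaSG1 (left) or PH4alphaSG2 (right) and each of the 8 non-gland genes, shifted so that the wild type mean is 0, with 1 point per array. The mutant points lie below the wild type points in all 16 columns, with mean changes of −3.20 to −2.41 on the left and −2.14 to −1.35 on the right.

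Across the wild type arrays, 6 of the 10 genes ran from high to low in the order replicate 2, replicate 1, replicate 3. They were PH4alphaSG1, PH4alphaSG2, PH4alphaEFB, PH4alphaMP, PH4alphaNE1 and Pdi. The same order was found for 30% of all probe sets, more than for any other order. Plod had replicate 2 lowest. In the mutants, replicate 1 was the highest array for 6 of the 10, beside 35.1% of all probe sets. These 6 were PH4alphaSG1, PH4alphaSG2, PH4alphaEFB, PH4alphaMP, PH4alphaNE1 and Plod. Mutant replicate 2 was the highest for 3 of the 10, beside 41.5% of all probe sets. The most negative control difference (−4.35) was that of mutant replicate 1, and a link between the 2 was not tested.

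Of the alpha subunits named here, all 8 lie on chromosome arm 3R, and Pdi and Plod lie on 3L. In the RefSeq gene order (Release 6 plus ISO1 MT), 10 protein-coding genes follow each other from PH4alphaSG2 to CG9698, and all 10 belong to the prolyl 4-hydroxylase alpha family. 3 of these 10 fell (1.93% of all probe sets) and none rose (2.1%). The median log2 change of the 10 was −0.27, beside −0.01 over all genes. The 3 that fell were PH4alphaSG2 at one end, PH4alphaSG1 in the middle and CG9698 at the other end. PH4alphaMP, PH4alphaNE1 and CG31371 lie between PH4alphaSG2 and PH4alphaSG1, and none of these passed. CG31371, next to PH4alphaSG1, had signals of 6.65, 7.38 and 6.29 in wild type and 6.91, 5.92 and 6.21 in the mutants, which overlap (log2 change −0.43, limma adjusted p = 0.609, and −1.50 with the covariate).

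CG9698, a family member with no tissue in its name, gave wild type signals of 7.13, 7.22 and 6.63 for replicates 1 to 3. The mutant signals were 6.01, 5.17 and 5.39. All mutant arrays were lower than all wild type arrays. The fall was 2.77-fold, or −1.47 on the log2 scale (SE 0.26, 95% interval −2.09 to −0.85), at a limma adjusted p of 0.033. The call did not hold with wild type replicate 1 (0.118) or 3 (0.0529) left out, nor with mutant replicate 2 (0.128) or 3 (0.158) left out, with log2 changes from −1.65 to −1.29. With the covariate the estimate was −2.52 (SE 0.62, limma adjusted p = 0.332).

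The genes beside the family cluster moved in both directions. Jon99Fi, a Jonah serine protease gene next to PH4alphaSG2, rose from 4.15, 3.41 and 4.20 to 8.51, 7.99 and 7.20 (limma adjusted p = 0.00464). Its wild type signals are dim, so the size of this rise is not exact, and its log2 change was 1.97 with the covariate in place of 3.98. spdo, a regulator of Notch signalling that overlaps PH4alphaEFB, fell from 8.18, 8.23 and 7.77 to 6.97, 6.60 and 6.85 (log2 change −1.25, limma adjusted p = 0.0143). spdo did not pass when wild type replicate 1 was left out (0.0676), nor with mutant replicate 2 (0.0695) or 3 (0.0845) left out. A second group of family genes lies further along the arm, from CG31021 to PH4alphaPV. Of its 5 family members, PH4alphaNE3 and PH4alphaPV included, none passed limma, and their log2 changes lay between −0.11 and 0.13.

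**Figure D4:**
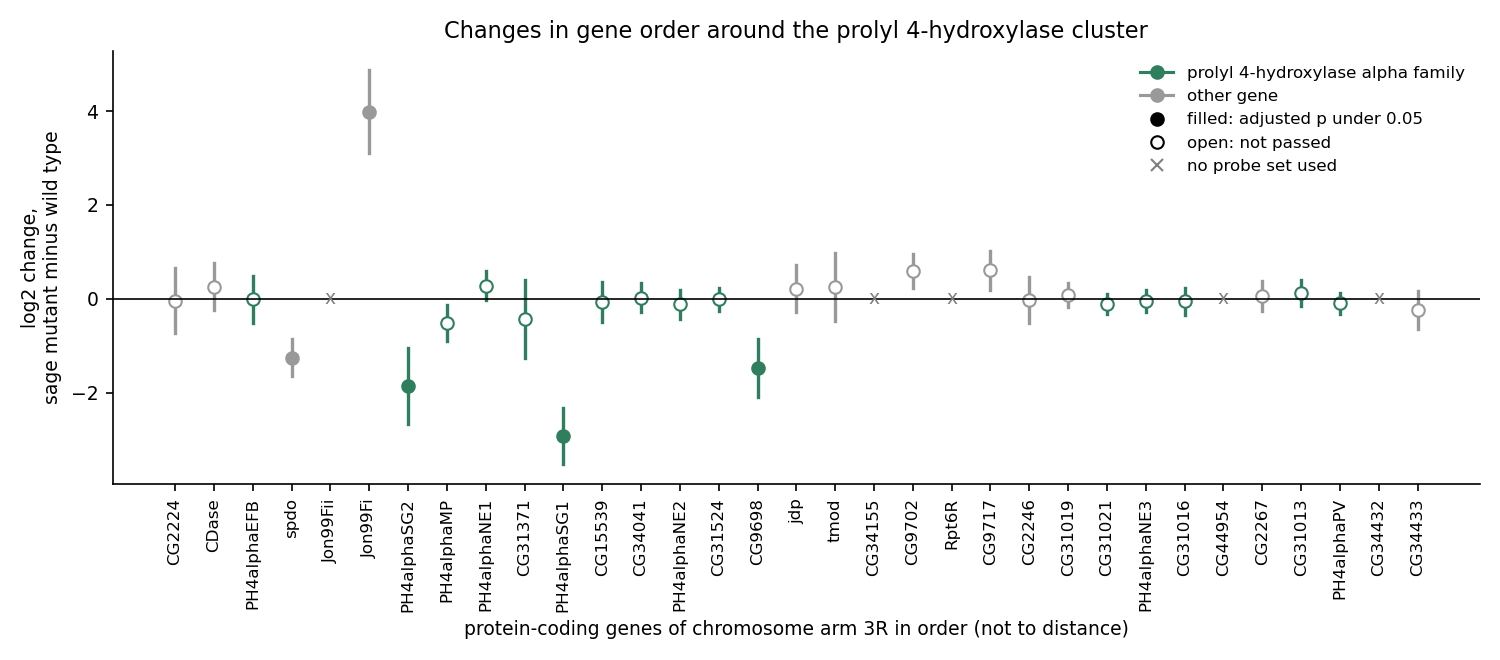
Log2 change with its 95% interval for protein-coding genes of arm 3R in gene order, not to distance, with family genes in green and genes past the test as filled points. PH4alphaSG2, PH4alphaSG1 and CG9698 are the filled green points, at −1.86, −2.92 and −1.47, with family genes that did not pass, such as PH4alphaMP at −0.52 and CG31371 at −0.43, between them.

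Of 18 further genes related to the alpha subunits, 16 had a probe set of their own. CG9698 was the only one that fell (1.93% of all probe sets), and none rose (2.1%). The median log2 change of the 16 was −0.03, and apart from CG9698 and CG31371 their log2 changes stayed between −0.12 and 0.18. None of them was higher at an unadjusted p under 0.05.

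Of 8 genes of the protein disulphide isomerase family and its oxidation, 1 fell (1.93% of all probe sets) and none rose (2.1%). The gene that fell was CG9302, a member with thioredoxin-like domains, which went from 10.13, 10.58 and 10.24 to 9.60, 8.98 and 9.15. On the log2 scale it fell by 1.07 (SE 0.20), at a limma adjusted p of 0.0381. It was lost with the replicate block (0.0786). Leaving out wild type replicate 1 (0.0941) or 3 (0.0891) ended the call, as did leaving out mutant replicate 2 (0.144) or 3 (0.171). With the covariate its estimate was −1.81. All 8 genes had negative estimates, with a median log2 change of −0.38 beside −0.01 over all genes. CG9302, ERp44 and prtp were lower at an unadjusted p under 0.05, as were 9.44% of all probe sets. Pdi was at −0.20, beside that family median of −0.38, and neither value rests on a call.

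**Figure D5:**
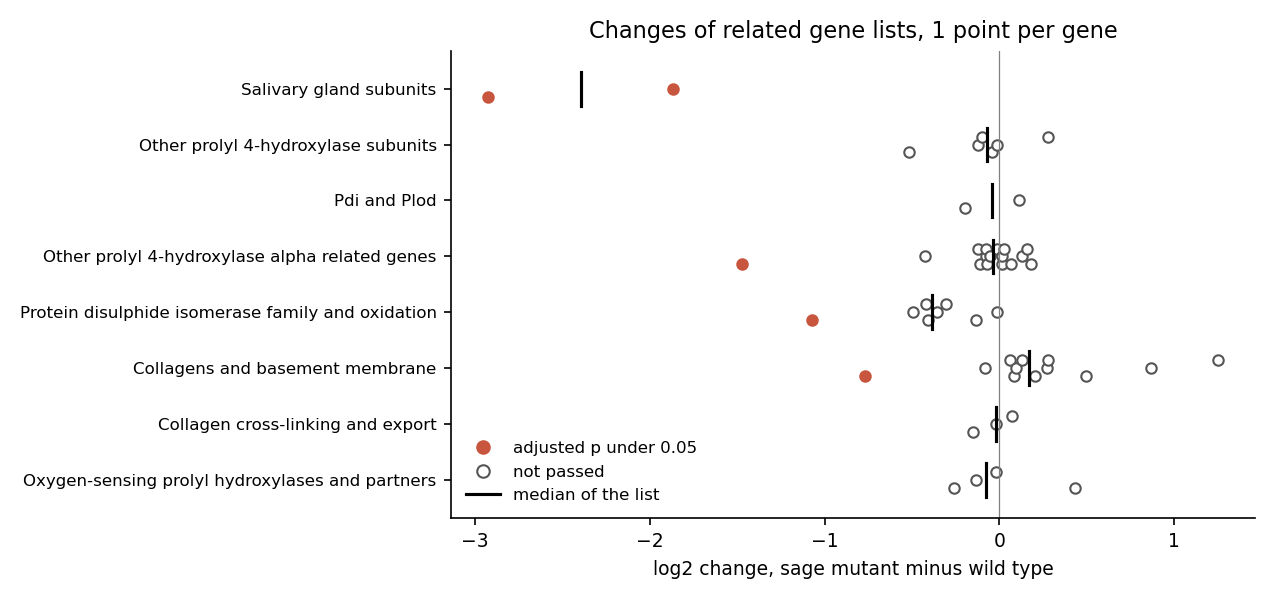
Log2 change of each gene, by its brightest probe set, in the 10 genes (upper 3 lines) and in 5 related lists, with a black line at each list's median. The gland subunits lie at −2.92 and −1.86, the disulphide isomerase family has its median at −0.38 and the collagen list at 0.17.

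Among 12 collagen and basement membrane genes, 1 fell (1.93% of all probe sets) and none rose (2.1%) after adjustment. vkg and Mp were higher at an unadjusted p under 0.05, as were 9.25% of all probe sets. The one that fell was Pxn, a peroxidasin, at −0.77 on the log2 scale (SE 0.12, limma adjusted p = 0.0231). Leaving out wild type replicate 1 (0.0766) or 3 (0.0687) ended this call, as did leaving out mutant replicate 2 (0.0838) or 3 (0.0919). With the covariate its estimate was −0.28. Hemocytes make much of this matrix in the embryo. Of 9 hemocyte markers 1 fell, which was Pxn again, and 1 rose, against 1.93% and 2.1% of all probe sets. The one that rose was NimC1, a phagocytosis receptor gene, by 0.74 on the log2 scale (limma adjusted p = 0.0468). NimC1 is named after its values were seen, and its call held without wild type replicate 2 alone among the 6 arrays, with an adjusted p of up to 0.192 without the others. It was also lost with quantile normalization (0.0673) and with centring on array medians (0.0627), and its estimate was 1.13 with the covariate.

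The fly's collagens are the substrates most often named for these enzymes, and 3 of them are given here although they did not pass, chosen after their values were seen. Col4a1, a type IV collagen chain, had signals of 12.26, 12.06 and 12.54 in wild type and 12.29, 12.63 and 12.77 in the mutants (limma adjusted p = 0.478). vkg, the other type IV chain, had 12.28, 11.89 and 12.58 against 12.52, 12.85 and 12.88 (limma adjusted p = 0.247). Both had overlapping groups. The highest value of each came from mutant replicate 3, while wild type replicate 3 lay above mutant replicate 1. Mp, the multiplexin collagen, had signals of 8.54, 7.72 and 8.77 in wild type and 9.19, 9.70 and 9.90 in the mutants. Its groups did not overlap, with an estimate of 1.25 (SE 0.31, limma adjusted p = 0.0855), and it passed with trend and robust variance (0.0374) and with array weights (0.0138). With the covariate the estimates were 0.93 for Col4a1, 0.95 for vkg and 2.14 for Mp, none of which passed. A dimmer probe set of Mp had a log2 change of −0.15.

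No gene passed in the 2 remaining lists, and none of their members had an unadjusted p under 0.05 by limma. In the list of collagen cross-linking and export, the lysyl oxidase genes Loxl1 and Loxl2 had log2 changes of −0.15 and 0.07 (limma adjusted p = 0.634 and 0.843). In the list of oxygen-sensing prolyl hydroxylases and their partners, Vhl, part of a ubiquitin ligase, had −0.26, and sima, the fly hypoxia-inducible factor, had 0.43 (limma adjusted p = 0.53 and 0.676).

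The genes with the most similar profile were ranked by Euclidean distance between log2 values centred on each gene's mean over the 6 arrays, with 1 probe set per gene. Nearest to PH4alphaSG1 were CG32243 at a distance of 0.587 and sage at 0.671. ATP6AP2, which assists the vacuolar proton pump, followed at 1.01, then CG14715 at 1.05 and CG13738 at 1.17. Their log2 changes lay between −3.52 and −2.37 (for CG13738 −2.75, and −1.60 with the covariate), and sage was thus 2nd of 11982 genes ranked. The ranking uses the same 6 arrays, so a fall near that of PH4alphaSG1 follows from the choice. PH4alphaSG2 came 9th, at 1.40.

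Nearest to PH4alphaSG2 were the Jonah protease gene Jon44E at a distance of 0.445, CG7137 at 0.494 and Tmem214 at 0.539. CG34195 at 0.555 and MFS15, of the major facilitator transporter family, at 0.570 followed. Their log2 changes lay between −1.92 and −1.47, and all 5 passed limma. They were chosen for closeness to PH4alphaSG2 on these same arrays, so falls of this size follow from the choice and are no separate result. All 5 calls were lost without mutant replicate 2 (limma adjusted p of 0.0761 to 0.158) and without mutant replicate 3 (0.0858 to 0.169). Those of CG7137, CG34195, Jon44E and MFS15 were also lost without wild type replicate 1 (0.0907 to 0.122), and that of CG34195 without mutant replicate 1 (0.0602). PH4alphaSG1 was 133rd in this ranking. The 2 gland subunits therefore had closer company elsewhere on the array than in each other, since the measure counts the size of the drop as well as its pattern over arrays.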

How the data were processed

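The authors deposited 1 log2 signal per probe set and array, made with RMA and Partek per the submitters' processing notes, which give no versions here. RMA by default applies quantile normalization and reports log2 values, and the base was inferred from this and from the values' range. The deposited table held 18952 rows, of which 183 controls were kept out of the test. Genes were named from the platform's annotation, updated through RefSeq identifiers (11894 of 11983 found). 13647 probe sets named 1 gene, 402 several and 4720 none, and Pdi or other members may also be read by the last. Each of 18769 probe sets was tested with limma 3.58.1 (R 4.3.3), with lmFit and eBayes on a model holding only the group, and Benjamini-Hochberg adjustment over all; intervals are 95% and unadjusted. The steps were tested on simulated data.

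Members, lists, named genes and tests were chosen with earlier results of these data known. The named genes are the 10 members, sage, up to 4 genes past the test in each related list or else the 2 with the smallest p, and the 5 with the most similar profile to each gland subunit. Gene neighbours of the cluster, marker genes and 3 collagens were named outside this rule. Where a gene had several probe sets, the brightest by its mean stood for it. The labels do not say whether replicates came from separate collections, and the p-values therefore cover the spread of these samples alone, which could be technical. Titles of the samples give the replicate numbers. After subtracting group means, same-numbered arrays correlated at 0.17, 0.28 and 0.31 across probe sets. Arrays with different numbers ran from −0.30 to 0.14, the highest being wild type replicate 1 with mutant replicate 3. The labels state no pairing, and the main fit and the exact permutation test use none. The fit with the block is given where it changes a call. Alternatives were quantile normalization, centring, a filter at a mean of 5, trend and robust variance, array weights, 1 probe set per gene, the replicate block, the 5′ minus 3′ covariate and leaving out each array.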

Additional observations from a re-analysis of the deposited data

How the results depend on the processing

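PH4alphaSG1 passed in 13 of 14 alternatives and PH4alphaSG2 in 9 of 14. With the 5′ minus 3′ covariate their log2 changes were −3.49 and −2.82 and neither passed, nor did sage (−2.97). The groups do not overlap in this covariate, so the fit cannot tell it apart from genotype. With the replicate block PH4alphaSG2 was at −1.86 with a limma adjusted p of 0.0539; beside the PH4alphaSG2 and CG9302 calls, CG7137 and CG34195 lost theirs with the block. Leaving out 1 array gave −3.13 to −2.74 for PH4alphaSG1 and −2.13 to −1.54 for PH4alphaSG2. The number of the 10 genes that fell was 3 with array weights, 1 with the block, 0 with the covariate, and 1 to 2 without 1 array. None of the 10 rose in any alternative. Over all probe sets, 1230 were lower and 1507 higher with array weights and 0 and 0 with the covariate, where 1613 had an unadjusted p under 0.05. Without 1 array, 62 to 507 were lower and 69 to 624 higher. The cause was not tested.

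Several estimates changed sign without being called in either direction. With array weights PH4alphaEFB was at 0.014, PH4alphaNE2 at 0.013, Loxl2 at −0.025 and sima at −0.046. With the covariate PH4alphaNE2 was at 0.087, Plod at −0.042, sima at −0.53 and Vhl at 0.23. Without 1 array, PH4alphaEFB ranged from −0.21 to 0.19, PH4alphaNE2 from −0.21 to 0.0081, PH4alphaNE3 from −0.085 to 0.0046, Loxl2 from −0.048 to 0.13 and sima from −0.054 to 0.74. All 119 recomputed pair differences stayed within 1 SD of the main value. Of 140 recomputed list counts 19 moved, by calls won or lost for 1 gene. Centring on array medians shifted the median log2 change of all probe sets from −0.03 to −0.10. The 3 arrays per group limit every interval, and dim probe sets such as those of PH4alphaNE2 and PH4alphaNE3 limit what a change could show.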
